A study of Prunus sibirica with 6 samples.

Results

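A group of genes of a kind known from pollen was among the most abundant transcripts in frosted flowers of Prunus sibirica, the Siberian apricot, and 5 such genes of the 31889 listed are described here. They are the homolog of the tomato anther gene LAT52 (PARG10934), an Olee1-like gene (PARG12083), a RALF-like 22 gene (PARG12203), a gene for fasciclin-like arabinogalactan protein 14 (FLA14, PARG08021) and an L-ascorbate oxidase homolog (PARG30116). They were picked by gene identifier for their high level and for their names, so their abundance is a description and not a finding. Names are those of similar proteins in other species, as given in the table. By mean level over the 6 libraries they ranked 5 (FLA14), 7 (L-ascorbate oxidase homolog), 8 (RALF-like 22), 9 (Olee1-like) and 13 (LAT52 homolog). The rule had no stated limit, and the genes at ranks 12 and 14, on either side of the LAT52 homolog, were a pectinesterase 28 gene (PARG29390, mean 4201 FPKM) and a gene without a protein name (PARG08935, mean 3957 FPKM), against 4023 FPKM for the LAT52 homolog.

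The flowers were in bloom and under natural frost at -4 °C when picked. Clone 338, of strong frost resistance, and clone 28, of weak frost resistance, gave 3 libraries each, named strong 1 to 3 and weak 1 to 3 below. Each kind of resistance stood for 1 clone, every flower was frosted, and whole floral organs were used, with no separation of anthers from other parts. The labels do not state whether a clone's libraries are separate trees, so the p-values cover the spread among these samples alone, and that spread may be technical. Between 16367632 and 18866306 reads per library fell on genes. Levels are FPKM, fragments per kilobase of gene length on the authors' scaling, which did not follow the reads on genes. Strong library 1 and weak library 1 had 16865237 and 16775697 such reads. Yet 1 read per kilobase was worth 0.0439 FPKM in the former and 0.0965 FPKM in the latter. Differences in FPKM between libraries include this scaling, so shares of reads are also given. Weak library 3 stood apart from its clone: over all genes the Pearson correlation of its log2 levels was 0.967, 0.970 and 0.959 to strong libraries 1, 2 and 3, and lower, at 0.924 and 0.933, to weak libraries 1 and 2, so results are also given without it. In flowers as a whole, fewer pollen grains and less RNA per grain cannot be told apart.

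Pollen stores the transcripts that its tube needs, and the tube grows at its tip by secreting wall material through the pistil. In tomato, LAT52 is a small secreted protein of the Ole e 1 family that pollen needs to hydrate and germinate, and it binds a pollen receptor kinase. Ole e 1 itself is the main allergen of olive pollen. RALF peptides are secreted signals, and in Arabidopsis pollen they act through the receptor kinases ANXUR and BUPS, with LORELEI-like membrane-anchored proteins as partners and leucine-rich repeat extensins as binding sites in the wall. FLA14 of Arabidopsis is a wall glycoprotein made mainly in pollen. The L-ascorbate oxidase homologs of rapeseed and tobacco pollen are secreted proteins of the multicopper oxidase family.

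The descriptions of the 5 genes share a feature, which is not independent of the choice, since the genes were picked in part for their names. All 5 were matched to proteins marked as precursors, the form of a protein that is still to be cut, as secreted proteins are, against 24.1% of the 12046 tested genes with a protein name. Of the 5, 3 sat on linkage group 3, which held 11.1% of all genes, but none next to another. The LAT52 homolog spans 14042663 to 14043579 on the minus strand, the Olee1-like gene 21970876 to 21971560 on the minus strand, and RALF-like 22 spans 22604822 to 22605190 on the plus strand. FLA14 lies on linkage group 2 (33807405 to 33808220, minus strand) and the L-ascorbate oxidase homolog on contig tig00008589 (301281 to 303264, minus strand), all as deposited, with the genome build not given in the sources used here. RALF-like 22 (369 bases) and FLA14 (816 bases) were as long as the stretch they span, so the table lists them without an intron, while the LAT52 homolog has 492 bases of gene length in a span of 917. The Olee1-like gene has 552 bases in a span of 685 and the L-ascorbate oxidase homolog 1761 in a span of 1984. No sequences are shown, since neither the genome nor the proteins of this species were used here.

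Among the secreted proteins, the LAT52 homolog reached 8917, 7714 and 2391 FPKM in weak libraries 1, 2 and 3. Strong libraries 1, 2 and 3 had 1440, 2618 and 1059 FPKM of it. Weak libraries 1 and 2 stood far above the rest, and weak library 3 lay below strong library 2, so the clones overlapped. The weak mean was 6341 ± 3473 FPKM against 1705 ± 813 FPKM for the strong libraries (SD, n = 3), with a difference of -1.79 ± 0.87 (SE) on the log2(FPKM + 1) scale, strong minus weak, which did not pass limma (adjusted p = 0.148). The Olee1-like gene, of the same family, was at 9201, 7852 and 2862 FPKM in the weak libraries and at 2642, 4101 and 1683 FPKM in the strong libraries. Strong library 2 was well above weak library 3 here, and this gene had the smallest log2 difference of the 5, at -1.17 ± 0.92 (SE, limma adjusted p = 0.328). RALF-like 22, the signalling peptide, was at 9553, 8955 and 3457 FPKM in the weak and at 2401, 3535 and 1459 FPKM in the strong libraries. Weak library 3 and strong library 2 were nearly level, with -1.53 ± 0.90 as the log2 difference (SE, limma adjusted p = 0.210).

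Of the wall proteins, FLA14 was at 12598, 11114 and 3863 FPKM in the weak and at 2791, 3785 and 1816 FPKM in the strong libraries. The L-ascorbate oxidase homolog was at 10903, 9667 and 3166 FPKM in the weak and at 1871, 3011 and 1205 FPKM in the strong libraries. In both genes every weak library exceeded every strong one, by a narrow margin between weak library 3 and strong library 2. The log2 differences were -1.61 ± 0.97 and -1.87 ± 0.91 (SE), with limma adjusted p of 0.218 and 0.148. The clones thus did not overlap in 2 of the 5 genes, against 45.4% of all 16462 tested genes (22.1% in this direction).

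None of the 5 genes (0 of 5) passed limma at an adjusted p of 0.05, where 15.3% of all tested genes did (7.78% lower and 7.53% higher in the strong clone), and 0 of 5 had an unadjusted p under 0.05, where 45.8% of all did. The spread within the weak clone was wide: weak library 1 exceeded weak library 3 by 3.73-fold for the LAT52 homolog, 3.21-fold for Olee1-like, 2.76-fold for RALF-like 22, 3.26-fold for FLA14 and 3.44-fold for the L-ascorbate oxidase homolog. Without weak library 3, 4 of the 5 passed, against 73.4% of all genes tested (35.4% lower in the strong clone). The log2 differences were then -2.39 for the LAT52 homolog (limma adjusted p = 0.0139), -2.0 for RALF-like 22 (0.0370), -2.14 for FLA14 (0.0335) and -2.44 for the L-ascorbate oxidase homolog (0.0165). The Olee1-like gene, at -1.69, did not pass (limma adjusted p = 0.0681). In all 5 genes weak libraries 1 and 2 were above the other 4 libraries, as in 37.7% of all tested genes. These values rest on 13997 to 199004 reads per gene and library, so counting error is small beside the spread between libraries.

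**Figure D1:**
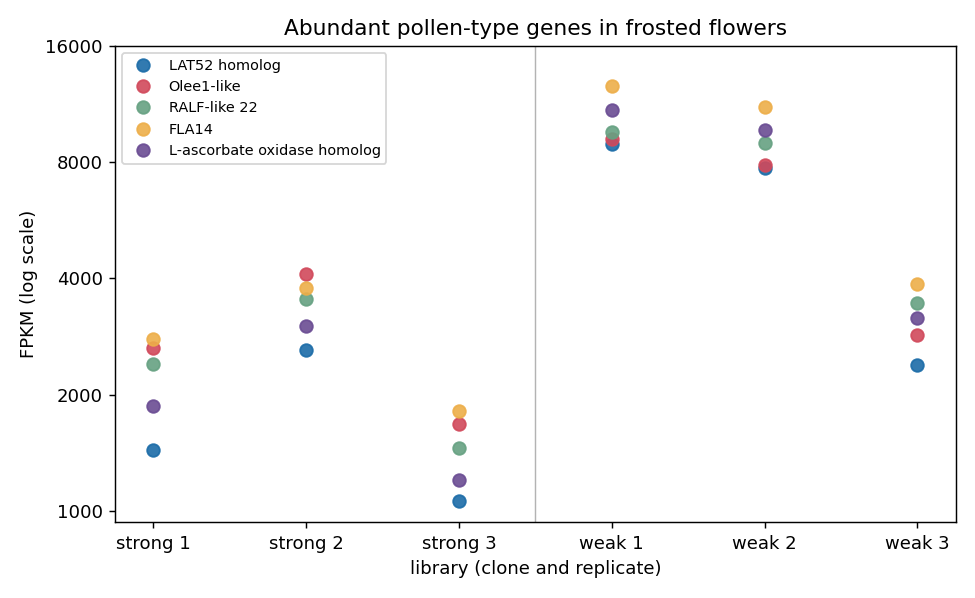
FPKM of the 5 genes (colours) in each library, on a log axis, with strong libraries left of the line and weak libraries right of it. Points are single libraries, and those of weak libraries 1 and 2 lie above all others, while weak library 3 lies near strong library 2.

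Together the 5 genes took 2.62%, 2.49% and 1.54% of the reads of weak libraries 1, 2 and 3. The strong libraries gave them 1.16%, 1.56% and 0.797%. The L-ascorbate oxidase homolog, the longest, had the most reads of the 5 in each library. It alone held 1.19% of all reads in weak library 1. As shares of the summed FPKM they took 4.20%, 4.09% and 2.71% in the weak libraries, against 2.23%, 2.88% and 1.56% for the strong. By share, weak library 3 lay below strong library 2. The number of genes at 1000 FPKM or more was 190, 179 and 60 in the weak and 40, 61 and 27 in the strong libraries. Such a count depends on the FPKM scaling, so it is no separate likeness of weak library 3 and strong library 2. In the weak libraries 1 read per kilobase was worth 0.0965, 0.0921 and 0.0481 FPKM. For the strong libraries the values were 0.0439, 0.0514 and 0.0372 FPKM.

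The markers of pollen and of other floral parts did not all move with these levels, and their part in the result was not tested. The pollen list, 125 genes whose description names pollen or an anther-specific gene, 22 of them at 0 throughout, summed without the 5 genes to 34666, 31016 and 11383 FPKM in the weak libraries and to 8084, 11748 and 6638 FPKM in the strong libraries. Weak library 3 was again just below strong library 2, but this order rests on a single gene of the list. That gene, arabinogalactan protein 31 (PARG12205), was at 491 FPKM in weak library 3 and 994 FPKM in strong library 2. Without it, weak library 3 would lie just above. The photosynthesis list of 132 genes, 23 at 0, summed to 10858, 10749 and 6872 FPKM in the weak and 8110, 8485 and 8512 FPKM in the strong libraries, so weak libraries 1 and 2 were the highest in FPKM. As shares of the summed FPKM, weak libraries 1 and 2 were instead the lowest, at 0.892% and 0.971%. Weak library 3 had 1.18%, and the strong libraries had 1.62%, 1.44% and 1.83%. Its most abundant gene, without a protein name (PARG23970), was alone at 6234, 5899 and 1905 FPKM in the weak and 1196, 1928 and 784 FPKM in the strong libraries. A narrower list of photosystem and chlorophyll a-b proteins, added after the descriptions were seen, held 40 genes of green tissue, 3 at 0, and of its 35 tested genes 13 rose and 1 fell in the strong clone. It ran opposite to the pollen list, at 1567, 1973 and 2586 FPKM in the weak and 4272, 3940 and 4749 FPKM in the strong libraries. Tapetum and exine genes, which mark the anther cells that coat pollen (56 genes, 4 at 0), summed to 717, 597 and 302 FPKM against 247, 271 and 216 FPKM. Stigma-specific and S-RNase genes of the pistil (27 genes, 16 at 0, and of 5 tested 0 higher and 2 lower) summed to 90.9, 78.7 and 31.3 FPKM in the weak libraries and 35.3, 64.4 and 21.0 FPKM in the strong libraries. By share of the summed FPKM, the pollen list without the 5 genes held 2.85%, 2.80% and 1.96% in the weak libraries. In the strong libraries it held 1.61%, 1.99% and 1.43%. The tapetum and exine shares were 0.0589%, 0.0540% and 0.0520% against 0.0493%, 0.0458% and 0.0464%. This list includes fatty acyl-CoA reductase genes on linkage group 1, named after their values were seen. Of these, PARG01275 was at 153, 79.4 and 30.2 FPKM in the weak and 0, 0.0546 and 0.0790 FPKM in the strong libraries. PARG01277 was at 48.6, 26.8 and 8.89 FPKM in the weak and 0 in the strong libraries. The higher weak shares rest largely on such genes and do not describe the list as a whole. Those of the stigma-specific and S-RNase genes overlapped, at 0.00747%, 0.00711% and 0.00539% against 0.00705%, 0.0109% and 0.00453%.

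The ends of the order of the 5 levels were nearly fixed, while the middle differed between the clones. The LAT52 homolog was the lowest of the 5 in all 6 libraries, and FLA14 was the highest in all but strong library 2. The L-ascorbate oxidase homolog was above the Olee1-like gene in all 3 weak libraries and below it in all 3 strong libraries. In the weak clone the means ran from FLA14, at 9192 ± 4674 FPKM, through the L-ascorbate oxidase homolog at 7912 ± 4157, RALF-like 22 at 7321 ± 3360 and Olee1-like at 6638 ± 3339 to the LAT52 homolog (SD, n = 3). In the strong clone they ran from Olee1-like, at 2809 ± 1218 FPKM, through FLA14 at 2797 ± 984, RALF-like 22 at 2465 ± 1040 and the L-ascorbate oxidase homolog at 2029 ± 914 to the LAT52 homolog. No neighbours in either order differed by more than their SD. Within a library, though, FLA14 exceeded the L-ascorbate oxidase homolog in all 6, by 1.15-fold to 1.51-fold.

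The Olee1-like gene kept a different ratio to the other 4 genes in each clone. Its ratio to the LAT52 homolog, as a log2 difference of FPKM, was 0.62 higher in the strong than in the weak clone. Put the other way, the LAT52 homolog stood at 0.545, 0.638 and 0.629 of the Olee1-like level in strong libraries 1, 2 and 3, against 0.969, 0.982 and 0.835 for the weak. So the pair were nearly level in weak libraries 1 and 2, and the Olee1-like gene was well above in the strong clone. Over the L-ascorbate oxidase homolog, the Olee1-like gene was at 1.41, 1.36 and 1.40 in the strong libraries against 0.844, 0.812 and 0.904 in the weak. Here weak library 3 went with its clone and not with strong library 2. In contrast, the ratio of the LAT52 homolog to the L-ascorbate oxidase homolog overlapped, at 0.769 to 0.879 in the strong and 0.755 to 0.818 in the weak clone. Of the 10 ratios between the 5 genes, 6 did not overlap between the clones, among them all 4 with the Olee1-like gene. Among the 190 ratios between the 20 most abundant genes the share was 27.4%. These ratios share genes, do not change when each library is scaled by 1 factor and were not tested.

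**Figure D2:**
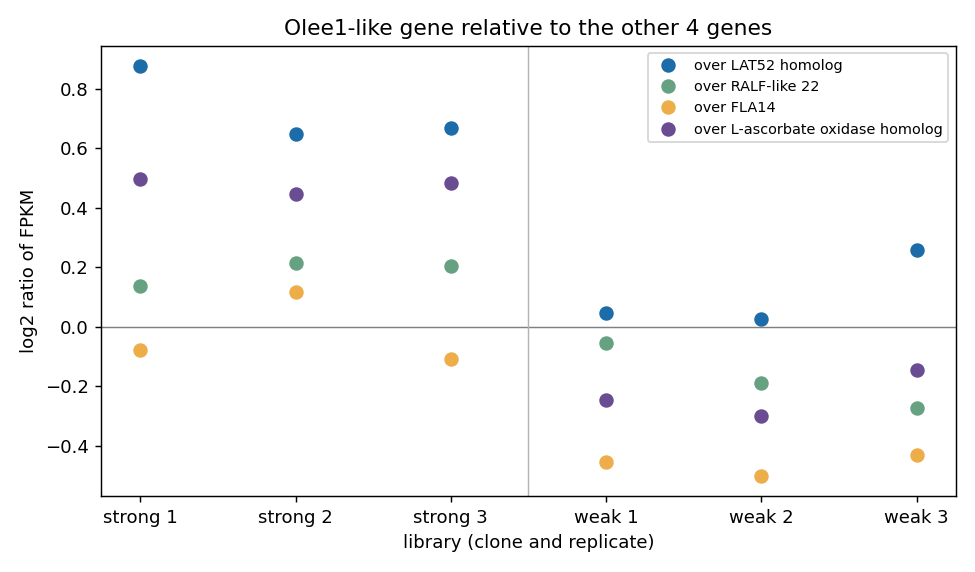
Log2 ratio of the FPKM of the Olee1-like gene to that of each of the other 4 genes (colours), by library; 0 means equal levels. For each of the 4 the strong libraries lie above the weak ones, as over the L-ascorbate oxidase homolog, where the ratios were 1.36 to 1.41 against 0.812 to 0.904.

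Other genes of the Ole e 1 family varied in level and pattern, and 1 of them, arabinogalactan protein 31 (PARG12205), was close to the Olee1-like level in strong library 3, at 1681 against 1683 FPKM. The Ole e I domain was listed in 23 genes, of which 16 were tested, and 1 was higher and 1 lower in the strong clone. The median log2 difference was -0.10, against 0.05 over all genes tested. Equal library sums moved the median of all genes to 0.76, so medians of lists under other scalings are given relative to it. Relative to all genes this list's median was -0.15 as deposited, -0.03 with equal sums and 0.40 with quantile scaling, which turns its direction. Close to the Olee1-like gene on linkage group 3, a gene named for the olive allergen Ole e 1 (PARG12078, start 21936121, named after its values were seen) was at 598, 521 and 172 FPKM in the weak and 159, 325 and 116 FPKM in the strong libraries (-1.05 ± 0.61, SE, limma adjusted p = 0.206). The Olee1-like gene was 12.6 to 16.7 times as abundant as PARG12078 in each library, per length. Other genes, such as PARG12082, lie between the pair. Another gene named Olee1-like, on linkage group 2 (PARG08511), was at 543, 451 and 471 FPKM in the weak and 470, 413 and 558 FPKM in the strong libraries, with overlap (-0.03 ± 0.33, SE, limma adjusted p = 0.944). The genes past the threshold were proline-rich protein 4 (PARG20908), at 750, 382 and 302 FPKM in the weak and 20.4, 21.7 and 14.6 FPKM in the strong libraries, and a gene without a protein name (PARG05178), which rose by 1.73 ± 0.45 (SE) on the log2 scale in the strong clone, both named after their values were seen.

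RALF-like 22 was far above the rest of its family in level. The RALF domain was listed in 9 genes. Of the 6 tested, 0 rose and 2 fell in the strong clone by limma, and the list's median was -1.16 on the log2 scale (relative to all genes -1.20, and -0.52 under quantile scaling). The list by name, of 10 genes with 7 tested, also had 0 higher and 2 lower, and its median was -0.78. At the next highest mean, RALF-like 34 (PARG26914) was at 56.0, 54.9 and 90.6 FPKM in the weak and 104, 76.4 and 111 FPKM in the strong libraries, with the strong mean above the weak (0.55 ± 0.29, SE, limma adjusted p = 0.168). The genes that fell in the strong clone were a rapid alkalinization factor gene (PARG02884) and a RALF-like 19 gene (PARG14674), named after their values were seen. The former was at 117, 69.9 and 36.2 FPKM in the weak and 10.9, 9.91 and 12.3 FPKM in the strong libraries, with no overlap (-2.50 ± 0.41, SE, limma adjusted p = 0.0163). RALF-like 19, whose Arabidopsis namesake acts in the pollen tube, was at 11.1, 8.89 and 2.54 FPKM in the weak and 0.404, 0.355 and 0.684 FPKM in the strong libraries (-2.35 ± 0.47, SE, limma adjusted p = 0.0269).

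Genes named for receptors and partners of LAT52 and RALF proteins were at lower levels than the LAT52 homolog and RALF-like 22. Those described first here were highest in weak libraries 1 and 2. Whether their products bind those of the LAT52 homolog and RALF-like 22 was not tested. Their list held 47 genes, of which 26 were tested, 3 higher and 0 lower in the strong clone. Its median log2 difference was -0.62, or -0.67 relative to all genes, which became -0.57 with equal sums and -0.32 with quantile scaling. Pollen receptor-like kinase 2 (PARG03926), of the kinase family that LAT52 binds in tomato, was at 1334, 1246 and 384 FPKM in the weak and 214, 362 and 149 FPKM in the strong libraries. The LAT52 homolog was 6.19 to 7.23 times as abundant, per length, in each of the 6 libraries, a pair set side by side after the values were seen. All 5 tested pollen receptor-like kinases had differences of -1.95 to -1.65, and 0 passed limma at an adjusted p of 0.05. A gene named for the RALF receptor ANXUR2 (PARG03106) was at 1103, 1036 and 321 FPKM in the weak and 214, 372 and 140 FPKM in the strong libraries. RALF-like 22 exceeded it by 8.65-fold to 11.2-fold. The co-receptor gene LLG1 (PARG14642) was at 1668, 1413 and 525 FPKM against 349, 396 and 237 FPKM, with no overlap (-1.74 ± 0.55, SE, limma adjusted p = 0.0683).

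The wall proteins and other receptor kinases of the list did not all follow the ligands. A pollen-specific leucine-rich repeat extensin (PARG11993) was at 2380, 2162 and 741 FPKM in the weak and 523, 704 and 352 FPKM in the strong libraries. FERONIA is a receptor kinase used widely outside pollen. The most abundant gene of that name (PARG29155) was at 66.2, 60 and 41.7 FPKM in the weak and 46.4, 45.8 and 58.0 FPKM in the strong libraries (-0.14 ± 0.24, SE, limma adjusted p = 0.653). The 14 tested kinases of the family that holds ANXUR and FERONIA had 3 genes that rose in the strong clone and 0 that fell, at a median of -0.06, and the 6 tested leucine-rich repeat extensins had 0 of either, with a median of -0.55. The 3 genes that rose were FERONIA genes (PARG13268 and PARG09573) and a HERK 1 gene (PARG00798), named after their values were seen, all at low levels. PARG13268 was at 3.52, 4.36 and 5.92 FPKM in the strong and 0.909, 0.217 and 1.13 FPKM in the weak libraries (1.69 ± 0.29, SE, limma adjusted p = 0.0186).

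**Figure D3:**
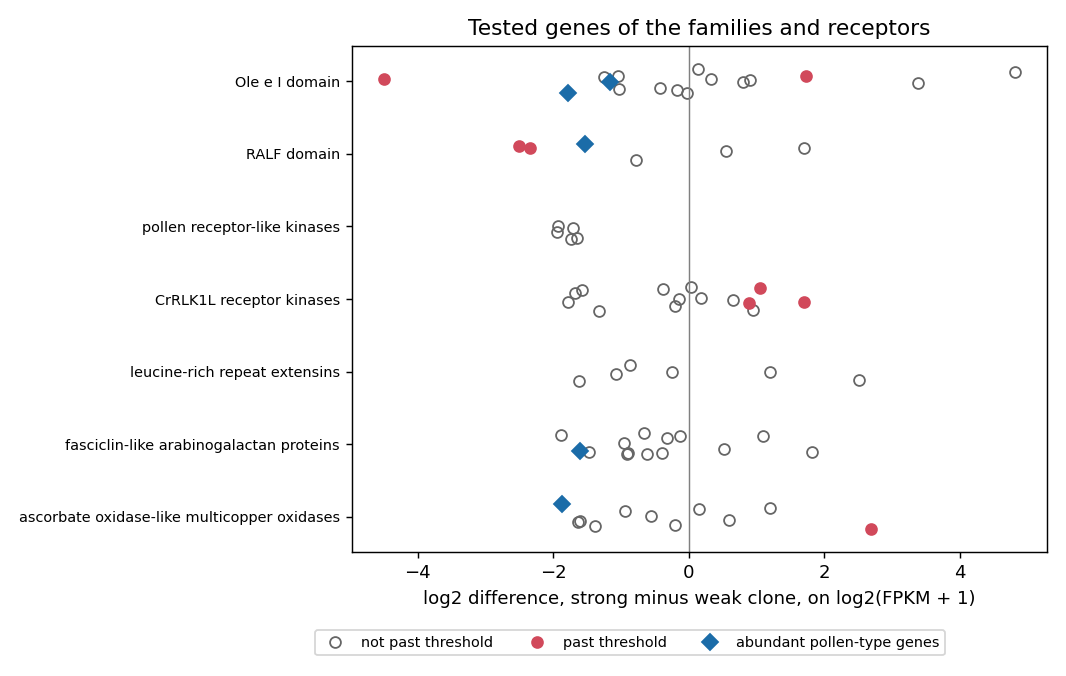
Log2 difference, strong minus weak, of each tested gene in the families of the 5 genes and in receptor and partner families by name, jittered within a row. Filled circles passed limma at an adjusted p of 0.05, open circles did not, and diamonds are the 5 genes, at -1.87 to -1.17. The 5 pollen receptor-like kinases lie between -1.95 and -1.65.

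FLA14 stood beside a second gene of the same name. PARG08020, 3077 bases away on the same strand, was at 8276, 7442 and 2268 FPKM in the weak and 1349, 2327 and 881 FPKM in the strong libraries (-1.89 ± 0.86, SE, limma adjusted p = 0.129). FLA14 was 1.49 to 2.07 times as abundant as its copy, per length. How reads common to such copies were assigned is unknown, so their separate levels are uncertain. On the other side of FLA14, 683 bases away, PARG08022 has no protein name. It was at 33.3, 31.2 and 10.4 FPKM in the weak and 0.607, 1.87 and 1.16 FPKM in the strong libraries. This gene passed limma (-3.44 ± 0.48, SE, adjusted p = 0.0109). Of 29 genes with fasciclin in their description 14 were tested, and 0 were higher and 0 lower by limma. The median log2 difference was -0.64 (relative to all genes -0.69, and -0.73 under equal sums), and over the 13 tested genes with the fasciclin domain, also with 0 calls, it was -0.61. Other members included FLA10 (PARG18110), at 84.0, 61.9 and 159 FPKM in the weak and 152, 100 and 163 FPKM in the strong libraries. FLA17 (PARG26588) was at 308, 266 and 128 FPKM against 113, 125 and 114 FPKM, with no overlap (-0.89 ± 0.37, SE, limma adjusted p = 0.108).

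The L-ascorbate oxidase homolog was the first of 4 genes of that name in a row on their contig. The next, PARG30117, was at 1696, 1521 and 550 FPKM in the weak and 393, 483 and 267 FPKM in the strong libraries (-1.60 ± 0.56, SE, limma adjusted p = 0.0811). PARG30118 was at 1356, 1201 and 427 FPKM against 301, 428 and 178 FPKM, and PARG30119 at 681, 594 and 210 FPKM against 151, 284 and 110 FPKM. The 4 kept their order in all 6 libraries, with the first 4.52 to 6.43 times as abundant, per length, as the second, and here too shared reads leave single levels uncertain. Genes of this name elsewhere went both ways, as in a pair named after their values were seen. PARG20793 on linkage group 6 was at 43.8, 41.8 and 12.9 FPKM in the weak and 13.3, 22.7 and 10.2 FPKM in the strong libraries, a log2 difference of -0.94 that did not pass. PARG13754 on linkage group 4 was at 11.8, 13.3 and 27.1 FPKM in the weak and 24.3, 18.8 and 34.2 FPKM in the strong libraries. Of 8 tested genes of this name, 0 were higher and 0 lower by limma, and their median was -1.16 (relative to all genes -1.21, and -0.37 under quantile scaling). The wider list of ascorbate oxidase and monocopper oxidase genes held 15 genes, with 11 tested, 1 higher and 0 lower in the strong clone. Its median was -0.56, or -0.60 relative to all genes, both as deposited and with equal sums, and -0.30 with quantile scaling. The gene that rose was SKS1 (PARG19328), at 25.8, 13.2 and 25.6 FPKM in the strong and 1.01, 1.54 and 6.37 FPKM in the weak libraries (2.69 ± 0.54, SE, limma adjusted p = 0.0270), named after its values were seen.

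**Figure D4:**
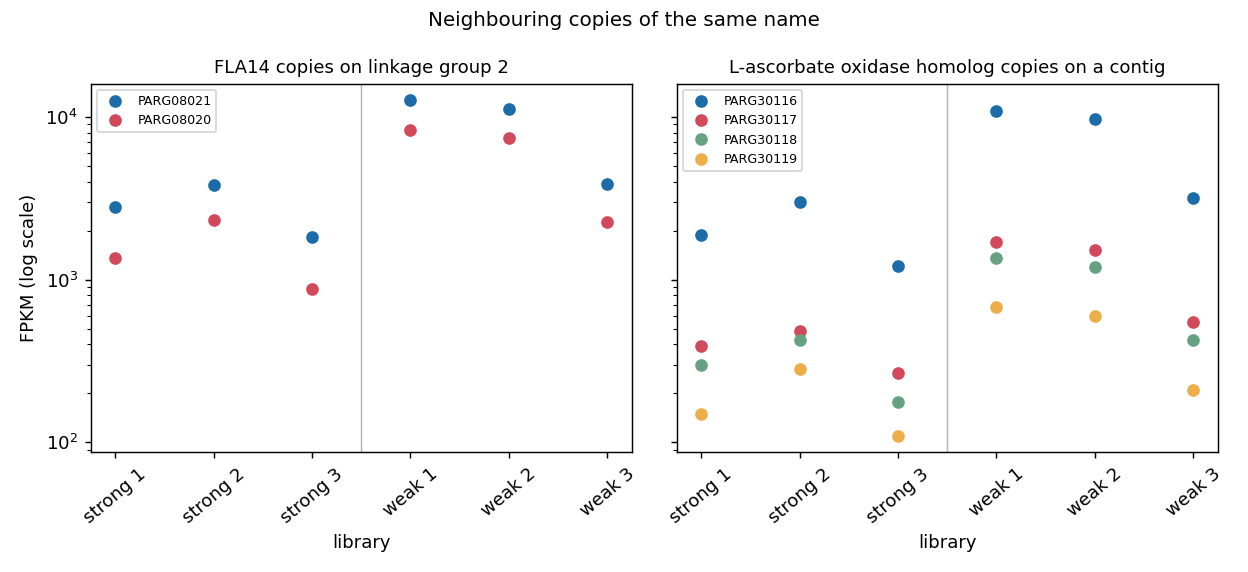
FPKM by library, on a log axis, of the 2 neighbouring genes named FLA14 (left) and the 4 neighbouring L-ascorbate oxidase homologs (right). Each copy is highest in weak libraries 1 and 2, and the order of the copies is the same in every library.

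Genes next to the LAT52 homolog, the Olee1-like gene and RALF-like 22 had lower levels than these in most libraries, and their patterns differed. Beside the LAT52 homolog, ubiquitin-conjugating enzyme E2 35 (PARG10933) was at 191, 147 and 112 FPKM in the weak and 106, 96.6 and 99.6 FPKM in the strong libraries, highest in weak libraries 1 and 2 as the LAT52 homolog was, and the gene on the other side (PARG10935) was under 8 FPKM throughout. Beside the Olee1-like gene, a 14-3-3-like protein D gene (PARG12084) was at 78.1, 74.5 and 142 FPKM in the weak and 173, 123 and 175 FPKM in the strong libraries. On the other side of the Olee1-like gene, a dihydroorotate dehydrogenase gene (PARG12082) was at 2.56, 2.22 and 5.38 FPKM against 7.39, 6.22 and 5.94 FPKM. The second gene after RALF-like 22 was non-classical arabinogalactan protein 31 (PARG12205), a wall protein with an Ole e I domain. It was at 13.0, 14.4 and 491 FPKM in the weak and at 1398, 994 and 1681 FPKM in the strong libraries. Its clones did not overlap, weak library 3 lay between, and the difference of 4.81 ± 1.35 (SE) did not pass limma (adjusted p = 0.0568).

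The pattern over the 6 libraries was shared widely. Among 8251 other genes with a mean of at least 10 FPKM, 984 (11.9%) had a Pearson correlation of at least 0.99 with the LAT52 homolog on log2(FPKM + 1), and the median was 0.69. All genes share the same 6 libraries, of which weak libraries 1 and 2 stand apart, so this is a description. The L-ascorbate oxidase homolog (0.998), FLA14 (0.995) and RALF-like 22 (0.994) were closer to it than the Olee1-like gene (0.984). The 10 most alike, at 0.9994 to 0.9998, all missed the limma threshold, which 15.3% of all tested genes passed. As these were picked for following a gene that missed it, this is no separate result. The 10 included F-box protein SKIP14 (PARG12809), IAA-amino acid hydrolase ILR1 (PARG26664), mitochondrial phosphate carrier protein 3 (PARG12705), a palmitoyl-acyl carrier protein thioesterase (PARG27973) and Myb-related protein 330 (PARG08838). Respiratory burst oxidase homolog protein H (PARG00825), an enzyme of the pollen tube in Arabidopsis, was also among them, at 27.6, 25.1 and 9.04 FPKM in the weak and 5.89, 9.49 and 4.15 FPKM in the strong libraries.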

How the data were processed

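RNA of whole flowers was sequenced in 6 libraries, 3 of each clone, grouped by the group label and matched to columns by title. The authors deposited FPKM values per gene with positions, lengths and descriptions. CASAVA, Bowtie2 and RSEM were used, per the submitters' processing notes. Their versions, the counting rules and the build were not stated there. FPKM times gene length was a whole multiple of 1 step per library for 100.0% of positive values, within 0.01 read, which gave the reads per gene and library. Column sums of FPKM differ (464129 to 1217398), so the deposited values are not scaled to equal sums. Library pairs all differed beyond sampling noise.

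The 16462 genes that reached 1 FPKM in 3 or more libraries were tested with limma 3.58.1 (R 4.3.3) on log2(FPKM + 1), lmFit and eBayes with trend, two-sided, Benjamini-Hochberg adjusted over all of them, with a threshold of 0.05. The fit was checked on simulated data. Family, receptor and marker lists are word or domain patterns in the descriptions and are described, not tested, and lists by domain (PF codes), by receptor class and of narrower markers were added after the descriptions were seen. The members and lists were chosen with earlier results of these data known. Named genes are the 5, the 10 most correlated with the LAT52 homolog, up to 4 of the highest mean in each list, genes next to the 5 and the 20 most abundant; others are said to be named after their values were seen. Patterns also match other genes, such as resurrection plant names in the pistil list of 32 genes (9 tested, 0 higher, 2 lower, median -1.12) and plastocyanin-like genes in the photosynthesis list of 132 genes (77 tested, 19 higher, 8 lower, median 0.89). The LAT52 and Ole e 1 names list had 9 tested genes (0 higher, 1 lower, median -1.05), the pollen list 70 (1 higher, 7 lower, median -0.92), and the tapetum and exine list 24 (0 higher, 4 lower, median -0.39). Alternatives were the pseudocount, the filter, scaling, a replicate block, no trend, array weights and leaving out each library.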

Additional observations from a re-analysis of the deposited data

How the results depend on the processing

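The 2520 genes past the threshold (1239 higher and 1281 lower in the strong clone) depended on the libraries. Leaving out 1 library gave 166 to 12075 genes (90 to 6248 higher, 76 to 5827 lower), the highest without weak library 3 and the lowest without strong library 1. Array weights, which gave weak library 3 a weight of 0.0528, called 13932 (7207 and 6725), and a filter of 5 FPKM called 1183 (540 and 643). With pseudocount 0.1 the higher genes were 796, and with equal sums the lower genes were 747. The replicate block called 6439 (2997 and 3442), but the labels do not say that the numbers pair the libraries. Same-numbered libraries had correlations of deviations of -0.24, 0.59 and 0.61. These values cannot settle it, since deviations from a clone's mean constrain each other. The block changed no call among the 5 genes.

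With array weights all 5 genes passed, as did 13932 of the 16462 tested genes (6725 lower in the strong clone). The weights were 15.3, 0.464 and 1.07 for strong libraries 1, 2 and 3, so strong library 1 dominated its clone. Differences were -2.46 for the LAT52 homolog, -1.63 for Olee1-like, -1.93 for RALF-like 22, -2.05 for FLA14 and -2.41 for the L-ascorbate oxidase homolog. Leaving out 1 library gave -2.39 to -1.44, -1.69 to -0.85, -2.0 to -1.19, -2.14 to -1.29 and -2.44 to -1.55 in the same order, and the only calls were the 4 without weak library 3. Quantile scaling, which by construction gives the same ranks the same values, reversed Olee1-like (0.38) and FLA14 (0.055), and left the LAT52 homolog at -0.17, RALF-like 22 at -0.054 and the L-ascorbate oxidase homolog at -0.29. With equal sums the differences were -0.95, -0.33, -0.69, -0.77 and -1.04, while the median of all genes went from 0.05 to 0.76. The higher ratio of Olee1-like to the LAT52 homolog in the strong clone was 0.55 to 0.70 with 1 library left out. Its value does not change under scaling by 1 factor per library, as with equal sums. Quantile scaling is not of that kind, and the ratio was not computed under it.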

Other observations

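The genes around these 5 in abundance were alike in pattern. Among the 20 most abundant genes, 9 had no protein name, and weak libraries 1 and 2 were above the other 4 libraries in all 20. Their log2 differences ran from -1.98 to -1.17, with the Olee1-like gene at the upper end, and 0 passed limma (adjusted p 0.118 to 0.328; 0 with an unadjusted p under 0.05). An exopolygalacturonase gene (PARG13849), which trims pectin chains, was at 7274, 6489 and 2254 FPKM in the weak and 1765, 2527 and 1183 FPKM in the strong libraries.

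Pectinesterase PPME1 (PARG08978), named for a pollen enzyme of Arabidopsis, had a larger difference than the 5 genes and passed the test. It was at 4395, 4281 and 1226 FPKM in the weak and 269, 486 and 160 FPKM in the strong libraries, with no overlap (-3.36 ± 0.71, SE, limma adjusted p = 0.0312). Calcium-binding polcalcin Cyn d 7 (PARG11632) was at 5264, 4164 and 1574 FPKM against 703, 1212 and 454 FPKM, and did not pass (-2.16 ± 0.72, SE, limma adjusted p = 0.0748).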
